A study of Oryza sativa with 7 samples.

Results

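The genes described are the auxin response factors (ARF) and the TIR1/AFB auxin receptors of rice: 25 ARF genes, OsARF1 to OsARF25, and 5 receptor genes, TIR1, AFB2 and the 3 AFB-type F-box genes LOC_Os02g52230, LOC_Os03g08850 and LOC_Os11g31620. They were chosen by locus identifier and are 30 genes, 29 of them among the 24775 genes listed in the series. OsARF20 (LOC_Os07g08520) was listed in none of the tables, and OsARF13 (LOC_Os04g59430) had 3 reads, all in control replicate 2, so 28 members were tested. ARF proteins are transcription factors that bind auxin response elements in DNA. The TIR1/AFB proteins are F-box subunits of a ubiquitin ligase that, with auxin bound, mark the Aux/IAA repressors for degradation. Aux/IAA proteins hold ARF proteins inactive and recruit TOPLESS-type corepressors, so receptors, repressors and response factors together make up the nuclear auxin pathway. In rice this pathway is known to be needed for crown roots, in part through CRL1, a LOB-domain gene with auxin response elements in its promoter.

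RNA was sequenced from cells cut out of the stem base by laser capture microdissection in wild-type seedlings of the indica cultivar IR64, 6 days old. The groups were crown root primordia at outgrowth (2 libraries), primordia at initiation (3 libraries) and ground tissue as control (2 libraries). All seedlings were untreated as far as the labels say, and shared genotype, age and growth conditions. Levels are counts per 1000000 reads (CPM), the reads of a gene scaled by the total of its file. Gene lengths were not used, so levels are compared between groups and not between genes.

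Total counts were between 8351775 in control replicate 1 and 25448025 in control replicate 2. The counts of replicates 1 and 3 at initiation lay closer together than sampling noise would place separate libraries, and the mean of both was used as 1 sample, which left n = 2 per group. Only 45 of 24775 genes had a lower count in replicate 3 than in replicate 1. The summed level of 7 green tissue genes was 3.97 to 5.67 CPM at outgrowth, 5.06 to 6.05 CPM at initiation and 342 to 908 CPM in control, and the stages overlapped. For 4 primordium genes the sum was 20.7 to 21.3 CPM at outgrowth, 167 to 248 CPM at initiation and 164 to 196 CPM in control, and initiation overlapped control. Of 11 cell division genes, 6 were called higher at outgrowth than in control, and 11 at initiation, where 12.8% and 14.4% of all genes were called higher. Against the labels of the primordia and of the control alike, CRL5, an AP2 gene needed for crown root initiation, had 0 and 0 CPM at outgrowth, 0.876, 6.99 and 0.808 CPM at initiation, and 150.4 and 156 CPM in control. WOX11, a homeobox gene that promotes crown roots, had at most 1.60 CPM in primordium libraries and 12.0 and 24.2 CPM in control. QHB, a homeobox gene of the root quiescent centre, had 20.6 and 20.2 CPM at outgrowth, 164, 236 and 160.4 CPM at initiation, and 1.32 and 15.0 CPM in control and was highest at initiation. No list of ground tissue markers was used. OSH1, a KNOX gene of the shoot meristem, had 15.0 and 13.1 CPM at outgrowth, 72.9, 67.9 and 71.8 CPM at initiation, and 415 and 429 CPM in control. The control levels of CRL5, WOX11 and OSH1 go against a label of plain ground tissue. The sum over 3 shoot meristem genes was 232 to 249 CPM at outgrowth, 364 to 369 CPM at initiation and 780.4 to 922 CPM in control. OSH71, 1 of these 3, was not called, with means of 127 CPM at outgrowth, 106 CPM at initiation and 112 CPM in control. For 3 secondary wall genes the sum was 5.03 to 6.23 CPM at outgrowth, 8.33 to 15.6 CPM at initiation and 8.06 to 23.3 CPM in control, which overlapped initiation. The part of these markers in the results was not tested, and in bulk samples fewer cells of a type and less RNA per cell cannot be told apart. The outgrowth files differ in layout from the others, and a separate batch cannot be told apart from that stage.

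Most ARF genes that differed were lower in primordia than in control. At outgrowth 14 of the 28 tested members were called lower and 2 higher, by edgeR's quasi-likelihood test at an adjusted p below 0.05. Over all 18836 genes tested, 26.4% were called in this comparison, 13.6% lower and 12.8% higher. At initiation 15 members were called lower and 2 higher than in control, where 30.4% of all genes were called, 16.0% lower and 14.4% higher. The median log2 fold change of the tested members was -0.91 at outgrowth and -0.61 at initiation, where the medians of all genes were -0.02 and -0.05. Both comparisons use the same control libraries. Leaving out outgrowth replicate 2 left 10 members called at outgrowth, and leaving out initiation replicate 2 left 10 called at initiation, where 11 were called without initiation replicates 1 and 3 and likewise without outgrowth replicate 1 or 2. With no abundance trend of the dispersion the outgrowth calls of OsARF9, OsARF21, AFB2 and LOC_Os02g52230 were lost, which left 12. The initiation calls of OsARF9, OsARF12, OsARF16, OsARF23, AFB2 and LOC_Os03g08850 were lost in that fit, which left 11.

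**Figure D1:**
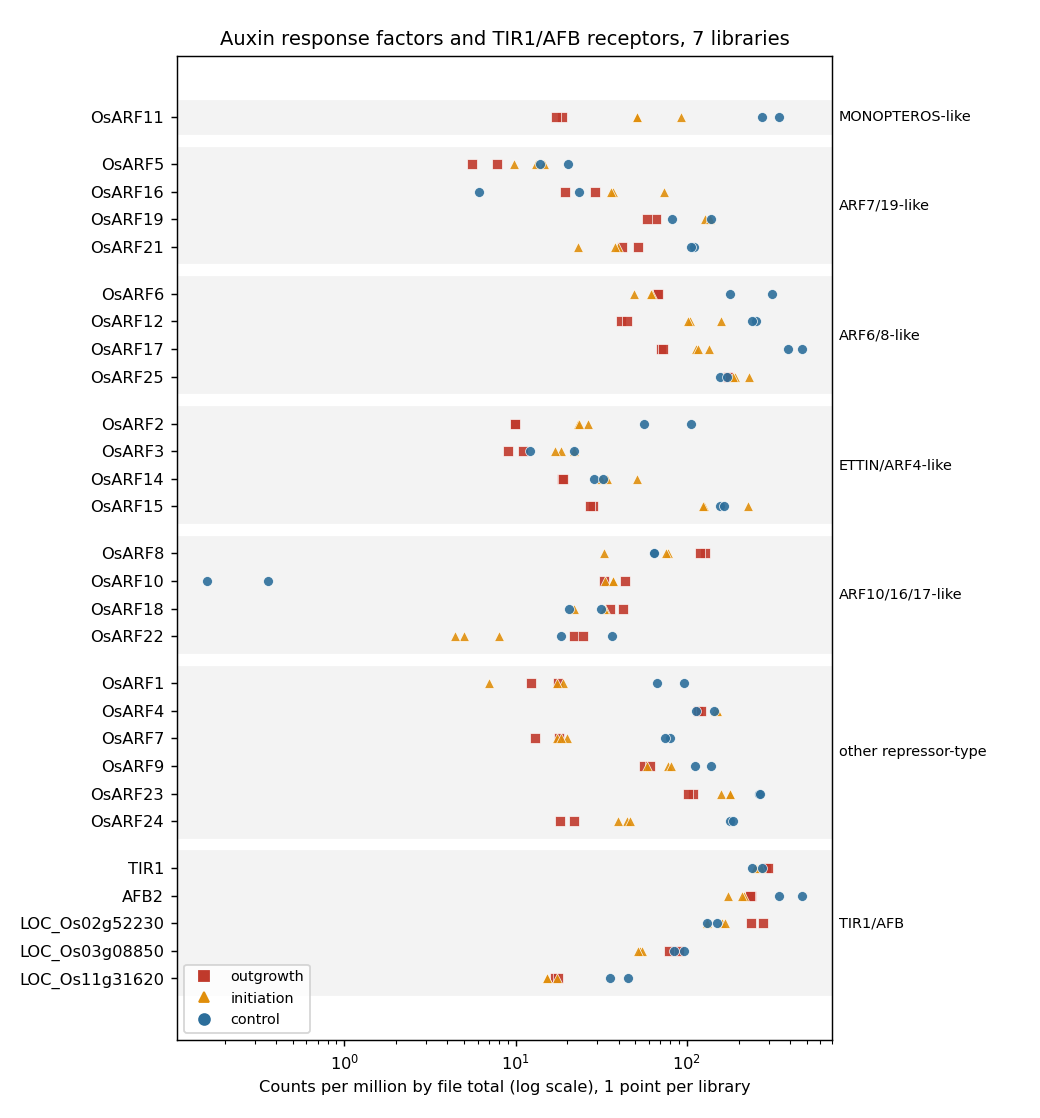
CPM by file total on a log axis for the 28 tested members, 1 point per library: squares are outgrowth, triangles initiation and circles control. The control libraries lie to the right of all primordium libraries for genes such as OsARF11, OsARF17 and OsARF24 and far to the left for OsARF10.

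**Figure D2:**
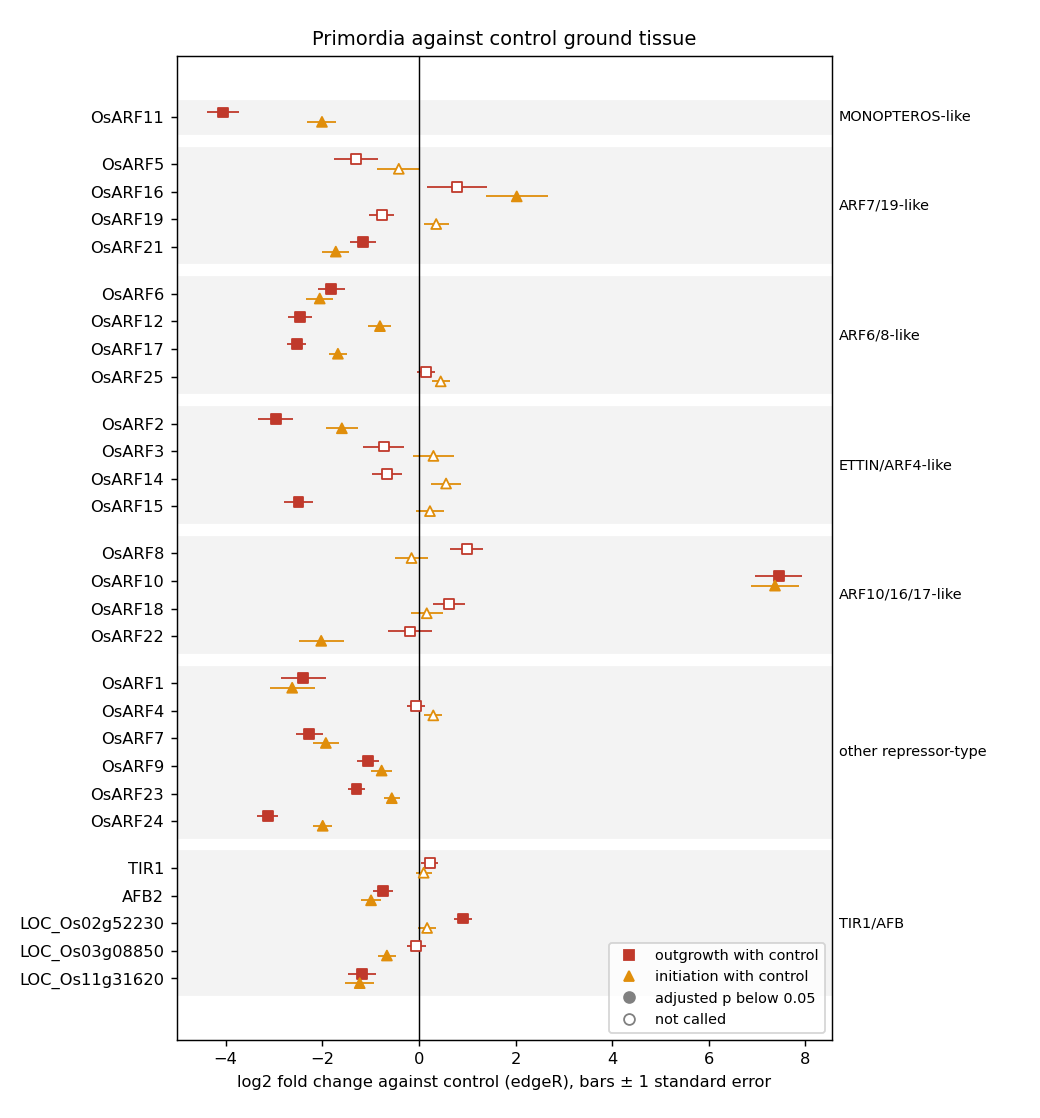
Fitted log2 fold changes against control at outgrowth (squares) and initiation (triangles), with bars of 1 standard error. Filled symbols passed an adjusted p of 0.05, and OsARF10 is the only member beyond a log2 fold change of 7.

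Of the activator-type ARF genes, whose proteins carry a glutamine-rich middle region, 5 of 9 were called lower at each stage, 1 was called higher at initiation and none at outgrowth. At outgrowth 7 had an unadjusted p below 0.05 by edgeR, all lower, and DESeq2 and limma likewise called none higher. DESeq2 called 7 lower at outgrowth and limma 5, and at initiation DESeq2 called 2 higher and limma 1. Of all 18836 genes, 7377 had an unadjusted p below 0.05 by edgeR at outgrowth. There DESeq2 called 3094 of all genes lower and limma 3087, and at initiation they called 3424 and 3169 higher. OsARF11 (LOC_Os04g56850) is the rice counterpart of Arabidopsis MONOPTEROS, which is needed to form the embryonic root. It had 18.5 and 17.1 CPM at outgrowth, 51.2, 92.1 and 50.8 CPM at initiation, and 344 and 273 CPM in control. The 3 groups did not overlap, with outgrowth lowest and control highest. Log2 fold changes against control were -4.07 (standard error 0.33, edgeR adjusted p = 0.000259) at outgrowth and -2.01 (standard error 0.30, edgeR adjusted p = 0.00283) at initiation. The value at outgrowth was the strongest fall among the members. Both calls were kept under all 17 alternatives run.

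The ARF7/19-like group, 4 of the activator-type genes, resembles the Arabidopsis factors that drive lateral root initiation. OsARF16 (LOC_Os06g09660) was the 1 activator-type gene called higher by edgeR. Its levels were 19.5 and 29.1 CPM at outgrowth, 37.2, 73.8 and 36.0 CPM at initiation, and 23.6 and 6.09 CPM in control. All initiation libraries lay above both control libraries, which themselves lay far apart. The log2 fold change at initiation was 2.02 (standard error 0.64, edgeR adjusted p = 0.0468), and at outgrowth, where libraries overlapped control, the value was 0.79 (edgeR adjusted p = 0.389). The initiation call was lost under 9 of 17 alternatives. Among these were leaving out initiation replicate 2 (log2 fold change 1.39, edgeR adjusted p = 0.26), initiation replicates 1 and 3 (2.46, edgeR adjusted p = 0.0709), control replicate 2 (1.37, edgeR adjusted p = 0.0595) or outgrowth replicate 1 or 2 (edgeR adjusted p = 0.0693 and 0.0709). Without control replicate 1 the value was 3.25 (edgeR adjusted p = 0.00587).

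OsARF21 (LOC_Os08g40900) went the other way. It had 52.1 and 41.7 CPM at outgrowth, 39.3, 23.1 and 37.9 CPM at initiation, and 109.8 and 106 CPM in control. Every primordium library lay below both control libraries. In the fit it had a log2 fold change of -1.16 (standard error 0.27, edgeR adjusted p = 0.0191) at outgrowth and -1.72 (standard error 0.28, edgeR adjusted p = 0.00389) at initiation. Without outgrowth replicate 1 or 2 the outgrowth call was lost (edgeR adjusted p = 0.0894 and 0.179). OsARF19 (LOC_Os06g48950) had 66.2 and 58.6 CPM at outgrowth, 136, 128 and 137 CPM at initiation, and 139 and 82.0 CPM in control. It was not called by edgeR, and its outgrowth libraries lay below all others (edgeR adjusted p = 0.0622 against control). OsARF5 (LOC_Os02g04810) had 7.75 and 5.56 CPM at outgrowth, 13.1, 9.72 and 14.7 CPM at initiation, and 20.2 and 13.8 CPM in control and was not called by edgeR either, with the outgrowth libraries again lowest. DESeq2 called 3 ARF7/19-like genes lower at outgrowth, where edgeR and limma called 1.

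In the ARF6/8-like group, cut by the microRNA miR167 in plants, 3 of 4 genes were called lower at outgrowth and 3 of 4 at initiation. OsARF17 (LOC_Os06g46410) had 70.7 and 72.4 CPM at outgrowth, 113, 134 and 116 CPM at initiation, and 466 and 387 CPM in control, and the 3 groups did not overlap. The fitted log2 fold change against control was -2.53 (standard error 0.19, edgeR adjusted p = 0.000214) at outgrowth and -1.68 (standard error 0.19, edgeR adjusted p = 0.000973) at initiation. OsARF12 (LOC_Os04g57610) had 41.3 and 44.6 CPM at outgrowth, 105, 159 and 102 CPM at initiation, and 251 and 239 CPM in control. Its groups were likewise ordered without overlap, outgrowth lowest and control highest. Set against control, the log2 fold change was -2.47 (standard error 0.25, edgeR adjusted p = 0.000644) at outgrowth and -0.81 (standard error 0.24, edgeR adjusted p = 0.0371) at initiation. The initiation call was lost without outgrowth replicate 1 or 2 (edgeR adjusted p = 0.0748 and 0.0751), initiation replicates 1 and 3 (0.124), control replicate 1 (0.0694) or control replicate 2 (0.0565), and under 7 of 17 alternatives in all.

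OsARF6 (LOC_Os02g06910) had 66.7 and 68.1 CPM at outgrowth, 62.5, 49.0 and 61.4 CPM at initiation, and 313 and 178 CPM in control. Both control libraries lay above every primordium library, and the stages lay close together. Against control its log2 fold change was -1.82 (standard error 0.28, edgeR adjusted p = 0.00346) at outgrowth and -2.05 (standard error 0.28, edgeR adjusted p = 0.00203) at initiation. The remaining gene of this group, OsARF25 (LOC_Os12g41950), was not called and had 177 and 174 CPM at outgrowth, 191, 230.3 and 186 CPM at initiation, and 155 and 172 CPM in control. All initiation libraries lay above control, with a log2 fold change of 0.45 (edgeR adjusted p = 0.104), and at outgrowth the value was 0.15, each with a standard error of 0.18. DESeq2 called 1 ARF6/8-like gene higher at initiation, where edgeR and limma called none. Reads of such related genes may have been divided between copies, as how the authors counted shared reads is not given in the sources used here.

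The ETTIN/ARF4-like genes are repressor-type and are the group cut by the small RNA tasiR-ARF in plants. OsARF2 and OsARF15 were called lower at outgrowth, and OsARF2 also at initiation. OsARF2 (LOC_Os01g48060) had 9.99 and 9.97 CPM at outgrowth, 23.1, 26.5 and 23.4 CPM at initiation, and 105 and 56.0 CPM in control, with no overlap between groups. Log2 fold changes against control were -2.97 (standard error 0.36, edgeR adjusted p = 0.00128) at outgrowth and -1.60 (standard error 0.34, edgeR adjusted p = 0.011) at initiation. The initiation call was lost without initiation replicate 2 (edgeR adjusted p = 0.0599) or replicates 1 and 3 (edgeR adjusted p = 0.072). OsARF15 (LOC_Os05g48870) had 28.4 and 27.1 CPM at outgrowth, 125, 228 and 125 CPM at initiation, and 157 and 166 CPM in control. Its initiation libraries surrounded the control libraries, while the outgrowth libraries lay far below both groups. Against control the log2 fold change was -2.50 (standard error 0.30, edgeR adjusted p = 0.00127) at outgrowth and 0.23 at initiation (edgeR adjusted p = 0.576). OsARF14 (LOC_Os05g43920) had 18.6 and 18.8 CPM at outgrowth, 31.5, 51.2 and 34.0 CPM at initiation, and 28.5 and 32.5 CPM in control. OsARF3 (LOC_Os01g54990) had 11.1 and 8.997 CPM at outgrowth, 18.5, 22.0 and 16.96 CPM at initiation, and 12.1 and 22.0 CPM in control. Neither was called, and in both the outgrowth libraries were the lowest.

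The ARF10/16/17-like genes, repressor-type and cut by miR160 in plants, held the member with the highest fold change. OsARF10 (LOC_Os04g43910) had 43.8 and 32.7 CPM at outgrowth, 37.2, 33.3 and 36.8 CPM at initiation, and 0.359 and 0.157 CPM in control. It was nearly absent from the control, with 3 and 4 reads there against at least 371 reads in each primordium library. From the reads of both outgrowth libraries, of initiation replicates 2 and 3, and of both control libraries, the ratio of pooled counts was 186 at outgrowth, with an exact 95% counting interval of 89.9 to 464, and 171 at initiation, with an interval of 82.6 to 425. Initiation replicate 1, nearly the same library as replicate 3, was left out of the pooled counts, and the intervals cover counting error only. The fitted log2 fold change was 7.45 (standard error 0.49, edgeR adjusted p = 0.000134) at outgrowth and 7.37 (standard error 0.49, edgeR adjusted p = 0.000174) at initiation. Without control replicate 2 the values were 6.79 and 6.71, by limma on log2(CPM + 1) they were 4.96 and 4.90, and both calls were kept under all 17 alternatives.

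The other genes of this group had more reads in control. OsARF22 (LOC_Os10g33940) had 22.0 and 24.7 CPM at outgrowth, 4.99, 7.99 and 4.42 CPM at initiation, and 36.8 and 18.4 CPM in control. The initiation libraries lay below all others, and outgrowth lay within the range of control. The log2 fold change at initiation was -2.02 (standard error 0.47, edgeR adjusted p = 0.0154), and this call was lost without initiation replicates 1 and 3 (edgeR adjusted p = 0.0831). OsARF8 (LOC_Os02g41800) had 127 and 119 CPM at outgrowth, 77.0, 32.8 and 75.3 CPM at initiation, and 64.5 and 63.9 CPM in control. Its outgrowth libraries were the highest, which did not pass the test against control (edgeR adjusted p = 0.0718). DESeq2 called 2 ARF10/16/17-like genes higher at outgrowth, where edgeR and limma called 1. OsARF18 (LOC_Os06g47150) had 35.8 and 42.2 CPM at outgrowth, 33.1, 21.9 and 33.0 CPM at initiation, and 20.6 and 31.4 CPM in control and was not called (edgeR adjusted p = 0.206 at outgrowth and 0.745 at initiation).

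Of the 6 other repressor-type genes tested, 5 were called lower at each stage and none higher, with none higher at an unadjusted p below 0.05 and none by DESeq2 or limma. Of all genes, 13.6% were called lower and 12.8% higher at outgrowth, and 16.0% and 14.4% at initiation. OsARF24 (LOC_Os12g29520) had 22.0 and 18.2 CPM at outgrowth, 45.0, 39.8 and 46.4 CPM at initiation, and 179 and 185 CPM in control, without overlap between groups. In the fit it had a log2 fold change of -3.13 (standard error 0.21, edgeR adjusted p = 0.000136) at outgrowth and -1.99 (standard error 0.20, edgeR adjusted p = 0.000707) at initiation. OsARF23 (LOC_Os11g32110), which has been reported to act with OsARF24 on a rice formin gene, had 109 and 101 CPM at outgrowth, 179, 159 and 178 CPM at initiation, and 263 and 267 CPM in control. The order of groups was the same, with smaller steps. The fitted log2 fold change against control was -1.29 (standard error 0.17, edgeR adjusted p = 0.00165) at outgrowth and -0.56 (standard error 0.17, edgeR adjusted p = 0.0363) at initiation. The initiation call was lost under 9 of 17 alternatives, among them leaving out outgrowth replicate 1 or 2 (edgeR adjusted p = 0.0988 and 0.0986), initiation replicate 2 (0.136), initiation replicates 1 and 3 (0.0727) or control replicate 2 (0.0567).

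OsARF1 (LOC_Os01g13520) had 17.7 and 12.3 CPM at outgrowth, 18.9, 6.99 and 17.4 CPM at initiation, and 96.7 and 66.9 CPM in control. OsARF7 (LOC_Os02g35140) had 17.8 and 13.0 CPM at outgrowth, 17.4, 19.8 and 18.3 CPM at initiation, and 79.5 and 74.2 CPM in control. In both genes all primordium libraries lay well below control, and the stages overlapped. OsARF1 had a log2 fold change of -2.40 (standard error 0.46, edgeR adjusted p = 0.00856) at outgrowth and -2.63 (standard error 0.47, edgeR adjusted p = 0.00562) at initiation. Its outgrowth call was lost without outgrowth replicate 2 (edgeR adjusted p = 0.0851), and without initiation replicates 1 and 3 its value at initiation was -3.43 (edgeR adjusted p = 0.011). For OsARF7 the log2 fold change was -2.27 (standard error 0.28, edgeR adjusted p = 0.00133) at outgrowth and -1.93 (standard error 0.27, edgeR adjusted p = 0.00224) at initiation.

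OsARF9 (LOC_Os04g36054) had 56.2 and 60.8 CPM at outgrowth, 77.3, 58.1 and 80.8 CPM at initiation, and 112 and 138 CPM in control. The control libraries were again highest, by less than in OsARF1 and OsARF7. Set against control, the log2 fold change was -1.05 (standard error 0.23, edgeR adjusted p = 0.0128) at outgrowth and -0.77 (standard error 0.22, edgeR adjusted p = 0.0346) at initiation. Without outgrowth replicate 1 or 2 the outgrowth call was lost (edgeR adjusted p = 0.124 and 0.0992). The initiation call was lost under 7 of 17 alternatives, including the removal of outgrowth replicate 1 or 2 (edgeR adjusted p = 0.0814 and 0.0826), initiation replicate 2 (0.163) or control replicate 2 (0.0842). OsARF4 (LOC_Os01g70270) was the gene of this group that was not called, with 116 and 120.5 CPM at outgrowth, 149, 145 and 149.8 CPM at initiation, and 143 and 113 CPM in control.

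Of the 5 receptor genes at outgrowth, 2 were called lower and 1 higher, where 13.6% and 12.8% of all genes were. At initiation 3 were called lower and none higher, where 16.0% and 14.4% of all genes were. None was higher at initiation at an unadjusted p below 0.05 by edgeR, nor by DESeq2 or limma. With only 5 genes, the number called higher does not set the receptors apart from all genes. TIR1 (LOC_Os05g05800) had 288 and 295 CPM at outgrowth, 252, 269 and 248 CPM at initiation, and 241 and 275 CPM in control. It was not called, with log2 fold changes of 0.22 at outgrowth and 0.10 at initiation and a standard error of 0.17 for each. AFB2 (LOC_Os04g32460), which with TIR1 is a target of miR393 in rice, had 236 and 235 CPM at outgrowth, 217, 173 and 209 CPM at initiation, and 471 and 344 CPM in control. Its primordium libraries all lay below control. Against control its log2 fold change was -0.75 (standard error 0.20, edgeR adjusted p = 0.031) at outgrowth and -0.99 (standard error 0.20, edgeR adjusted p = 0.0098) at initiation. The outgrowth call was lost without outgrowth replicate 1 or 2 (log2 fold change -0.73 and -0.74) or control replicate 1 (-0.54). The initiation call was lost without initiation replicate 2 (-0.87). Both calls were also lost with no abundance trend of the dispersion.

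LOC_Os02g52230 was the receptor gene called higher. It had 276 and 236 CPM at outgrowth, 161, 131 and 168 CPM at initiation, and 131 and 149.7 CPM in control. The outgrowth libraries lay above all others, while initiation overlapped control. Its log2 fold change at outgrowth was 0.91 (standard error 0.19, edgeR adjusted p = 0.0125), a call lost without outgrowth replicate 1 or 2 (edgeR adjusted p = 0.114 and 0.0622). LOC_Os11g31620 had 17.02 and 17.7 CPM at outgrowth, 15.2, 17.4 and 15.2 CPM at initiation, and 35.7 and 45.4 CPM in control. Here the control libraries lay above all primordium libraries, and the stages overlapped. Log2 fold changes against control were -1.18 (standard error 0.30, edgeR adjusted p = 0.0239) at outgrowth and -1.23 (standard error 0.30, edgeR adjusted p = 0.0184) at initiation. Both calls were lost without outgrowth replicate 1 or 2 (edgeR adjusted p = 0.211 and 0.196 at outgrowth, 0.0622 and 0.0627 at initiation), and the initiation call also without initiation replicate 2 (0.0592) or replicates 1 and 3 (0.0792).

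LOC_Os03g08850 had 89.7 and 78.7 CPM at outgrowth, 53.0, 54.6 and 51.7 CPM at initiation, and 96.4 and 84.1 CPM in control. The initiation libraries were the lowest, and outgrowth overlapped control. Its log2 fold change at initiation was -0.66 (standard error 0.19, edgeR adjusted p = 0.0357). This call was lost under 9 of 17 alternatives, among them leaving out outgrowth replicate 1 or 2 (edgeR adjusted p = 0.104 and 0.102), initiation replicate 2 (0.0949), initiation replicates 1 and 3 (0.12) or control replicate 1 (0.0538).

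Levels were also summed over genes. The sum over the 25 ARF genes, 1 of them in no table, was 1138 ± 24.6 CPM at outgrowth, 1667 ± 119 CPM at initiation and 2905 ± 303 CPM (SD, n = 2 each) in control. For the 5 receptor genes the sums were 885 ± 31.9 CPM at outgrowth, 669 ± 34.8 CPM at initiation and 937 ± 53.5 CPM (SD, n = 2 each) in control. Receptor sums at outgrowth and in control overlapped, and initiation was lowest. Activator-type genes gave 45.0% and 45.6% of the summed ARF level at outgrowth, 47.2%, 51.3% and 46.9% at initiation, and 58.4% and 54.1% in control. All primordium libraries lay below both control libraries in this share. Longer transcripts weigh more in such sums, and the share was not tested.

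**Figure D3:**
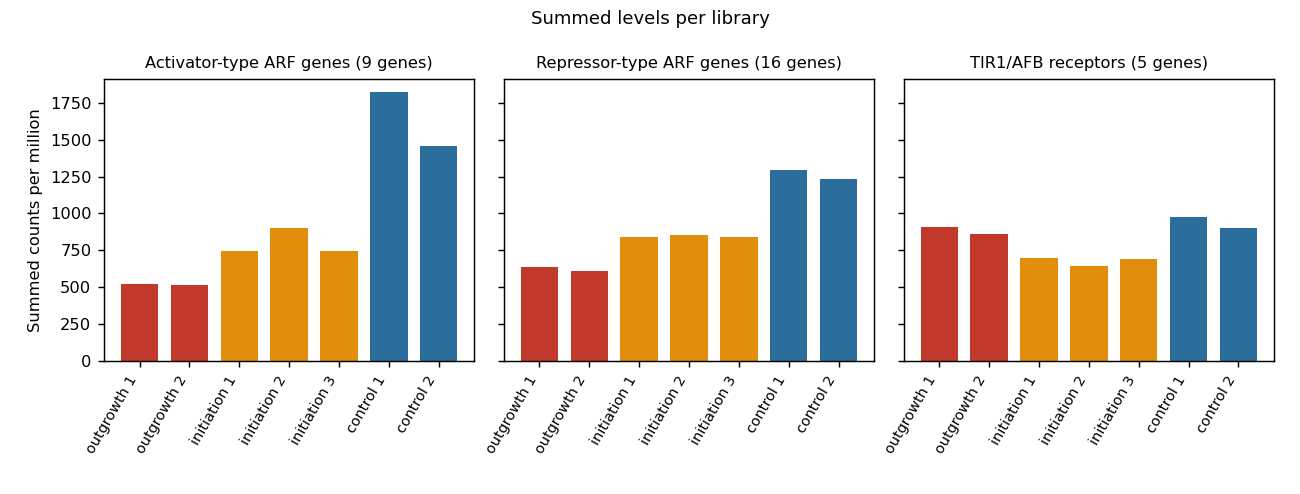
Bars give the summed CPM of the activator-type ARF genes, the repressor-type ARF genes and the receptors in each of the 7 libraries, outgrowth at the left of each panel and control at the right. Both ARF classes are lowest at outgrowth and highest in control, and the receptors are lowest at initiation.

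Between the stages, 4 members fell at outgrowth relative to initiation and none rose, where 3.07% of all genes were called, 1.84% lower and 1.23% higher. These were OsARF11, OsARF12, OsARF15 and OsARF24, and in each the outgrowth libraries lay below all initiation libraries. This order comes from the same libraries as the calls and is no separate support for them. At an unadjusted p below 0.05 by edgeR, 10 members were lower and 4 higher, where 3269 of 18836 genes passed. DESeq2 called 9 members lower and 3 higher, where it called 962 and 833 of all genes. Limma called 7 members lower and none higher, where it called 498 and 529 of all genes. The median log2 fold change of the members was -0.32, against 0.03 over all genes. OsARF15 had the strongest fall, -2.72 (standard error 0.30, edgeR adjusted p = 0.00866), followed by OsARF11 with -2.06 (standard error 0.31, edgeR adjusted p = 0.0195). OsARF12 had a log2 fold change of -1.66 (standard error 0.25, edgeR adjusted p = 0.0185) and OsARF24 one of -1.14 (standard error 0.20, edgeR adjusted p = 0.0292).

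The 4 calls between the stages were each lost with 1 library left out. Without outgrowth replicate 1, without outgrowth replicate 2 or without initiation replicate 2, none of the members was called by edgeR, in fits that called almost no genes at all. For OsARF15 the edgeR adjusted p was 0.105, 0.112 and 0.0536 in these fits, and its log2 fold change stayed between -2.74 and -2.20. For OsARF11 it was 0.187, 0.165 and 0.107, for OsARF12 0.22, 0.149 and 0.111, and for OsARF24 0.247, 0.311 and 0.152. OsARF24 was also not called without initiation replicates 1 and 3 (edgeR adjusted p = 0.0895). Without control replicate 1 or 2, which enter through the shared spread, 11 members were called in each fit.

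**Figure D4:**
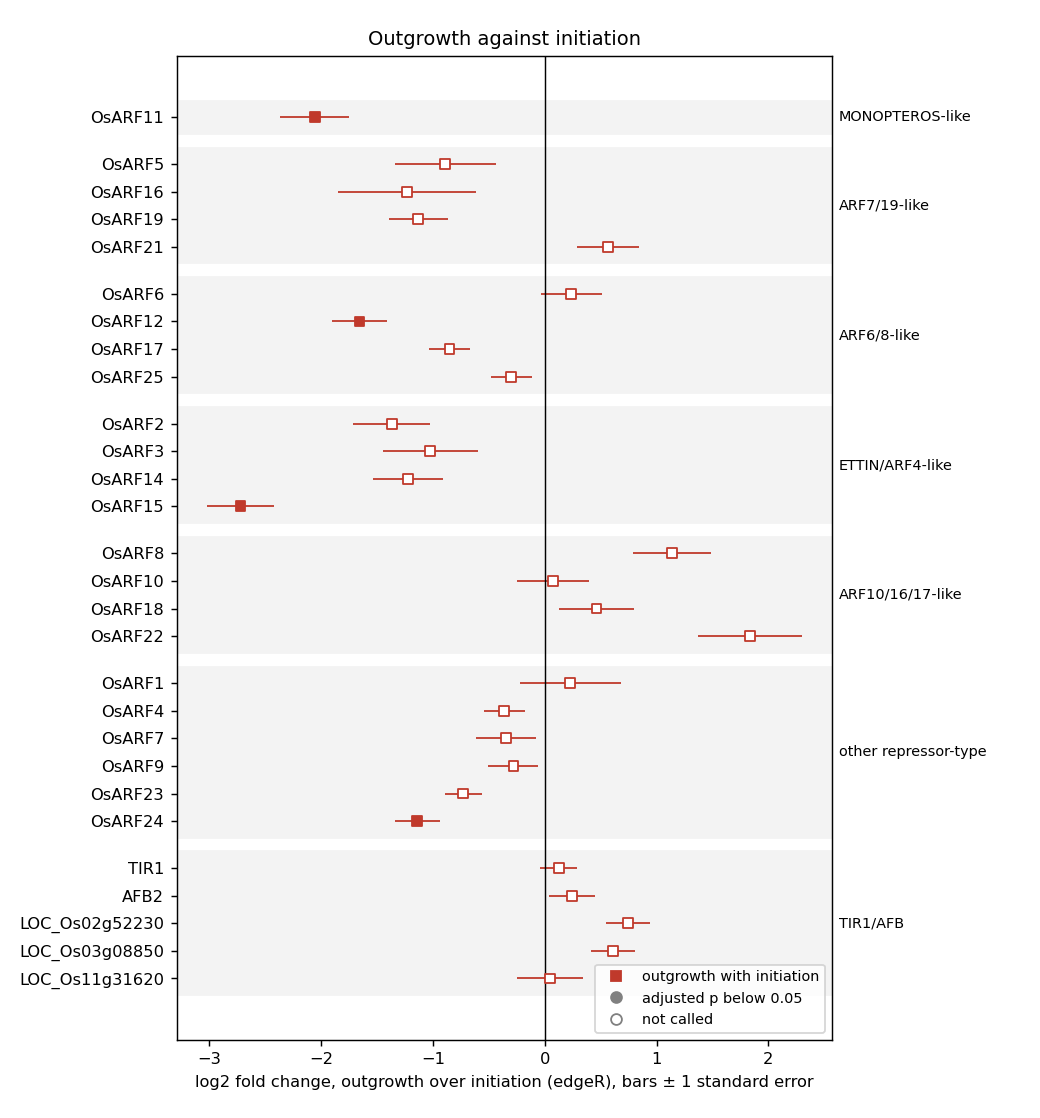
Fitted log2 fold changes of outgrowth over initiation for the 28 tested members, with bars of 1 standard error. Filled squares, all left of 0, are the 4 members that passed an adjusted p of 0.05.

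By group, the 4 ETTIN/ARF4-like genes all had negative fitted values between the stages, with a median log2 fold change of -1.30, and 1 was called. The 4 ARF10/16/17-like genes all had positive values, with a median of 0.80. Among them OsARF10 had 0.08 (standard error 0.32) and OsARF18 0.46 (standard error 0.33). None of the 4 was called by edgeR or limma, while DESeq2 called 2 higher and 2 had an unadjusted p below 0.05 by edgeR. OsARF22 had 1.84 (edgeR adjusted p = 0.0847) and OsARF8 1.14 (edgeR adjusted p = 0.132), and in both the outgrowth libraries lay above every initiation library. All 5 receptor genes had positive values with a median of 0.24, where 9774 of 18836 genes had positive values. The values were 0.05 for LOC_Os11g31620 (standard error 0.30), 0.12 for TIR1 (0.17) and 0.24 for AFB2 (0.20). LOC_Os03g08850 had 0.61 (0.19) and LOC_Os02g52230 had 0.74 (0.19). None of the 5 was called by edgeR or limma, 1 was called higher by DESeq2, and 2 had an unadjusted p below 0.05 by edgeR.

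Other genes of the pathway changed in both directions. Of 31 Aux/IAA genes, the repressors that receptors and ARF proteins share as partners, 27 were tested. At outgrowth 3 were called higher and 11 lower than control, with a median log2 fold change of -0.64, and at initiation 7 higher and 10 lower, with a median of -0.57. Among the 18836 genes tested, edgeR called 12.8% above control and 13.6% below it at outgrowth. For initiation these shares were 14.4% and 16.0%, and the medians over the 18836 genes were -0.02 and -0.05. The 3 higher calls at outgrowth do not set the Aux/IAA genes apart from that share. LOC_Os05g14180, of the Aux/IAA genes called lower the one with the highest mean level, had 216 and 236 CPM at outgrowth, 329, 352 and 334 CPM at initiation, and 1809 and 1431 CPM in control. In the fit it had a log2 fold change of -2.79 (standard error 0.19, edgeR adjusted p = 0.000149) at outgrowth and -2.15 (standard error 0.19, edgeR adjusted p = 0.000408) at initiation. LOC_Os02g13520, the corresponding gene among those called higher, had 102 and 102 CPM at outgrowth, 277, 304 and 274 CPM at initiation, and 44.9 and 55.9 CPM in control. All primordium libraries lay above control, and initiation was highest. The fitted log2 fold change against control was 1.06 (standard error 0.19, edgeR adjusted p = 0.00622) at outgrowth and 2.61 (standard error 0.20, edgeR adjusted p = 0.000279) at initiation.

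Between the stages 1.84% of all genes were called lower at outgrowth and 1.23% higher by edgeR. Of the Aux/IAA genes, 5 were called lower and none higher by edgeR, where 14 were lower and 4 higher at an unadjusted p below 0.05. DESeq2 called 13 lower and 2 higher, and limma 5 lower and 1 higher. Over all 18836 genes, 3269 had an unadjusted p below 0.05 by edgeR. DESeq2 called 962 of all genes lower and 833 higher, and limma 498 lower and 529 higher. LOC_Os01g13030, of the Aux/IAA genes called by edgeR the one with the highest mean level, had 207 and 214 CPM at outgrowth, 404, 383 and 394 CPM at initiation, and 629 and 669 CPM in control. The groups did not overlap, and between the stages the log2 fold change was -0.94 (standard error 0.16, edgeR adjusted p = 0.0264). Without outgrowth replicate 1, outgrowth replicate 2 or initiation replicate 2, none of the Aux/IAA genes was called by edgeR, in fits that called almost no genes at all. Fewer Aux/IAA genes than in the main fit were called without initiation replicates 1 and 3, and more without control replicate 1 or 2.

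GH3 genes encode enzymes that conjugate auxin to amino acids and are known to be induced by auxin. Of 13 such genes 11 were tested. At outgrowth, where 12.8% of all genes were called higher and 13.6% lower, 4 GH3 genes were called higher and 1 lower. At initiation, where 14.4% of all genes were called higher and 16.0% lower, 5 GH3 genes were called higher and 1 lower. LOC_Os07g40290 had 33.8 and 26.5 CPM at outgrowth, 335, 624 and 329.9 CPM at initiation, and 0.599 and 0.707 CPM in control. Its control libraries were near 0 and its initiation libraries the highest. Set against control, the log2 fold change was 5.51 (standard error 0.44, edgeR adjusted p = 0.000235) at outgrowth and 9.55 (standard error 0.47, edgeR adjusted p = 8.68e-05) at initiation, and between the stages -4.04 (standard error 0.34, edgeR adjusted p = 0.00503). The call between the stages was lost with no abundance trend of the dispersion, where 0 of 18836 genes were called. It was also lost without outgrowth replicate 1 and without outgrowth replicate 2. LOC_Os01g12160, the GH3 gene called lower, had 3.20 and 1.41 CPM at outgrowth, 6.31, 2.80 and 7.46 CPM at initiation, and 26.2 and 37.1 CPM in control, with log2 fold changes of -3.73 (standard error 0.65, edgeR adjusted p = 0.00546) at outgrowth and -2.59 (standard error 0.61, edgeR adjusted p = 0.0162) at initiation. Of 3 TOPLESS-related corepressor genes, LOC_Os01g15020 was called lower at each stage, with 44.6 and 42.2 CPM at outgrowth, 22.1, 8.13 and 21.5 CPM at initiation, and 239 and 118 CPM in control. Its libraries were lowest at initiation, and the log2 fold change was -1.99 (standard error 0.47, edgeR adjusted p = 0.0189) at outgrowth and -3.49 (standard error 0.50, edgeR adjusted p = 0.00243) at initiation. Neither LOC_Os08g06480 nor LOC_Os03g14980 was called. Their means were 309 and 306 CPM at outgrowth, 383 and 309 CPM at initiation, and 385 and 330 CPM in control.

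CRL1, the LOB-domain gene named above, had 0.0799 and 0.529 CPM at outgrowth, 6.40, 3.40 and 5.42 CPM at initiation, and 0 and 0.825 CPM in control. Every initiation library lay above all others, and CRL1 was not called in any comparison (edgeR adjusted p = 0.801 at outgrowth and 0.114 at initiation against control, and 0.230 between the stages).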

How the data were processed

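Libraries were made from laser-captured cells with a low-input SMARTer kit, per the labels' protocols, so few cells were amplified. Each deposited table pairs genes with values headed FPKM, per the file headers. These deposited values were treated as read counts: all are whole and none is 0, and their totals run from 8351775 to 25448025. A gene missing from a table was given 0 reads. STAR is named in the submitters' processing notes. For the counting tool, build, annotation and use of strand, nothing is given in the sources used here.

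Counts were tested with edgeR 4.0.16 (quasi-likelihood fit and test, TMM factors of 0.955 to 1.04, R 4.3.3), in 1 joint fit of 6 samples with 3 residual degrees of freedom. Initiation replicates 1 and 3 entered as their rounded mean, because the mean squared difference was 0.402 of the value that binomial counting alone gives, and 28.8 between replicates 1 and 2. A gene was tested if 2 or more samples reached 1 CPM. Benjamini-Hochberg adjustment ran over all 18836 genes within each comparison, two-sided, at 0.05. Standard errors were derived from fold changes and F statistics. CPM uses file totals, fold changes TMM. The test was also run on simulated counts. Labels do not tie libraries to plants, so the spread behind each p-value may be technical.

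Members and lists were chosen with earlier results of these data known. OsARF names follow the given order of locus identifiers. ARF classes, small RNA groups and the pathway and marker lists come from general knowledge of rice loci. The reference table of assembly ASM3414082v1 matched 0 of 24775 identifiers. Every member is accounted for, and those called in at least 1 comparison are given with fold changes. Of each pathway list, the called gene with the highest mean CPM per direction and comparison is named. Alternatives were other scalings, filters and tests (DESeq2 1.42.0, limma 3.58.1 on log2(CPM + 1)), other uses of the initiation libraries, fewer groups, a replicate block and leaving out each sample.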

Additional observations from a re-analysis of the deposited data

Results flagged for a closer look

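For 4 members outgrowth differed from initiation in the main test of the stages against each other. None of the 4 kept this call under all 17 alternatives. The log2 fold change of outgrowth over initiation was -2.06 for OsARF11 (edgeR adjusted p = 0.0195), -1.66 for OsARF12 (0.0185), -2.72 for OsARF15 (0.00866) and -1.14 for OsARF24 (0.0292). In each gene both outgrowth libraries lay below all 3 initiation libraries, which are the libraries that gave the calls, so this is no separate support. The adjusted p ranged over the alternatives from 3.85e-08 to 0.187 for OsARF11, from 9.2e-08 to 0.22 for OsARF12, from 5.49e-15 to 0.112 for OsARF15 and from 1.68e-05 to 0.311 for OsARF24. A separate batch for the outgrowth libraries cannot be told apart from the stage.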

How the results depend on the processing

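No called member changed direction under any of the 17 alternatives. Against control, 10 of the 16 members called at outgrowth and 8 of the 17 called at initiation kept their call under all of them, and between the stages 0 of 4 did. Leaving out 1 sample at a time gave 10 to 19 members called at outgrowth, 10 to 16 at initiation and 0 to 11 between the stages. For Aux/IAA genes the ranges were 10 to 18, 13 to 19 and 0 to 13, with 3 without initiation replicates 1 and 3. With no abundance trend of the dispersion, 11 members were called at initiation, and 0 members and 0 Aux/IAA genes between the stages. In that fit 13 members and 15 Aux/IAA genes had an unadjusted p below 0.05 by edgeR between the stages, where 2987 of 18836 genes did. With only the 2 groups compared in the fit, 11 members were called at initiation, and 11 members and 13 Aux/IAA genes between the stages. Between the stages DESeq2 called 12 members and 15 Aux/IAA genes, and limma 7 members. The fit without a low filter called 12 members and 13 Aux/IAA genes, and 7 separate libraries 12 members and 12 Aux/IAA genes. Over all genes these fits called, in the same order, 1795 of 18836, 1027 of 18836, 1554 of 24775 and 1624 of 18998. Where 1 sample is left in a group, it is assumed to vary like the others. Deviations of same-numbered replicates had correlations of -0.0267 to 0.0244 between groups. With 2 samples per group these values cannot show whether same-numbered replicates were paired, and the labels do not say. With the replicate block 16 members were called at outgrowth, 13 at initiation and 5 between the stages. OsARF13, with 3 reads, was left out by the filter on low counts and tested only in the fit without it.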
